A study of Mus musculus with 20 samples.

Results

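The enzymes that write and erase methyl and acetyl groups on histones, together with bromodomain proteins, were followed in whole mouse testis over 10 days of postnatal development. Members were taken by gene symbol: the families Kdm, Kmt, Hdac, Prdm, Setd, Sirt, Prmt and Brd, plus Brdt, Ehmt1, Ehmt2, Suv39h1, Suv39h2, Ezh1, Ezh2, Nsd1, Nsd2 and Nsd3. The rule found 87 of the 18193 genes that have a probe set assigned to a single symbol. Suv39h1 had no such probe set and is missing from all counts below. Where a gene had several probe sets, the one brightest on average (log2 scale) stood for it. One of the 87, Prdm16os, matched by its symbol and is a transcript named for the strand opposite Prdm16, not an enzyme.

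The samples are total RNA of testis taken at days 0, 3, 6, 8 and 10, at days 14, 18 and 20, and at days 30 and 35 after birth, with 2 arrays per day and 20 in all. The labels name no strain, genotype or treatment, and nothing in them says that the 2 arrays of a day came from separate animals. The p-values therefore measure the spread between these arrays, which may be technical. Every SD below is over the 2 arrays of a day.

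Of the 87 members, 85 exceeded the low-intensity filter (the 40th percentile of the array on at least 2 arrays) and were tested. Prdm14, a regulator of germ cell specification, and Prdm16os were not: their day means lay between 0.737 and 20.9 and between 2.33 and 20.7. Intensities are on the scale of the deposited table, in which the 2% trimmed mean of every array is 125. The brightness of a probe set depends on its sequence as well as on the RNA, so levels were compared between days and not between genes.

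Several features of the arrays bear on the values. The lowest intensities stepped up between days 14 and 18: the 5th percentile of an array had a median of 1.03 over the 12 arrays of days 0 to 14 and 3.85 over the 8 arrays of days 18 to 35. Comparisons across that step, and weak probe sets above all, cannot be told apart from it. The array titled day 18 replicate 2 carries another label reading day 0. It was kept under its title, its closest array was day 18 replicate 1 (Pearson r of 0.969 across genes), and none of the 5 comparisons uses day 18. The tissue label was set against marker genes: summed over the probe sets of 7 of 7 Sertoli cell markers, the 20 arrays held intensities from 4796 to 11455. Most of that sum came from Clu, which averaged 6423 on day 0 and 3964 on day 35. Of the epididymis markers, Defb42 averaged 223 on day 0, 133 on day 8 and 6.14 on day 14. Lcn5 and Adam7 averaged 1.82 and 17.9 on day 0. Of the red blood cell markers, Alas2 averaged 218 on day 0 and 48.9 on day 3, and Hba-a1 5.51 and 5.29. Whether other tissue or blood was in the early samples was not tested.

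Histone tails carry marks that particular enzymes add and remove. Methyl groups on lysine 4 and lysine 36 of histone H3 lie over active promoters and gene bodies, while methylation of lysine 9 and lysine 27 accompanies silent chromatin. Acetyl groups are removed by the zinc-dependent deacetylases and by the NAD-dependent sirtuins, and they are read by bromodomains. In the testis these systems accompany a sequence of cell states: spermatogonia divide, spermatocytes pair and recombine their chromosomes and silence the X and Y, and spermatids replace most histones with protamines. Prdm9 marks the sites of meiotic recombination, and Brdt, a bromodomain protein of the BET family made in male germ cells, is needed for spermatid formation.

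Promoter sequences are given for 5 members, picked as examples and not by rank of change. Brdt, Kdm4d, Hdac11 and Sirt2 were high late, and Hdac6 was high around day 10. The sequences are the 250 bases before the annotated start, from RefSeq on GRCm38.p6, written 5′ to 3′ on the strand of the gene. The positions are chr5:107330944-107331193 (plus strand) for Brdt, chr9:14500483-14500732 (minus strand) for Kdm4d, chr6:91156565-91156814 (plus strand) for Hdac11, chr7:28766502-28766751 (plus strand) for Sirt2 and chrX:7947890-7948139 (minus strand) for Hdac6. Capitals mark matches on either strand to the CCAAT box (CCAAT) and the GC box (GGGCGG), the only searched motifs found in these 5.
Brdt: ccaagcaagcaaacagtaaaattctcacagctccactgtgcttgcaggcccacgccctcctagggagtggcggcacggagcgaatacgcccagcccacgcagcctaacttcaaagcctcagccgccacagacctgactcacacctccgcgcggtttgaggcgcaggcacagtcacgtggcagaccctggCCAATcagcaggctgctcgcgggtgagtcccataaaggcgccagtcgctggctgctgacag
Kdm4d: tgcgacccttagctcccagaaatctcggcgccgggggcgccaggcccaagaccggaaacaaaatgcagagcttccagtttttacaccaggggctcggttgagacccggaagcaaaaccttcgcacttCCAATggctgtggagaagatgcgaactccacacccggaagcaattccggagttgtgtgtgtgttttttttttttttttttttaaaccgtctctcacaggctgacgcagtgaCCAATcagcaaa
Hdac11: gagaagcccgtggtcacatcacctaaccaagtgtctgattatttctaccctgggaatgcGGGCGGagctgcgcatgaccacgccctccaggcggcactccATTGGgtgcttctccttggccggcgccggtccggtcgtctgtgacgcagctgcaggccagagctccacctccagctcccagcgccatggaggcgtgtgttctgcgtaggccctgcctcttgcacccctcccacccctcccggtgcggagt
Sirt2: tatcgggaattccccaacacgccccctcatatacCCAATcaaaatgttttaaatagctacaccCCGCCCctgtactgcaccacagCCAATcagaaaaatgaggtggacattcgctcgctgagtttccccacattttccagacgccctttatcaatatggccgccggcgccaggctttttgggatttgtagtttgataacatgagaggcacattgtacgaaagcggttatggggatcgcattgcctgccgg
Hdac6: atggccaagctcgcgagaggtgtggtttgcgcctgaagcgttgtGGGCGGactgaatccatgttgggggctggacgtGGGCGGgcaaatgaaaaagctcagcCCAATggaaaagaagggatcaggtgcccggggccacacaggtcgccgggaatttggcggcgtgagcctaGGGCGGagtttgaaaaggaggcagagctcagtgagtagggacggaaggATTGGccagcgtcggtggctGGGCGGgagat

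The start used for Sirt2 is the outer edge of its RefSeq gene. For Brdt it lies 78 bases inside that edge, for Kdm4d 40, for Hdac11 145 and for Hdac6 158. Brdt has a CCAAT match from 61 to 57 bases before the start and no GC box in this window. Kdm4d has CCAAT matches at 123 and at 12 bases, and Hdac11 a GC box at 191 and a CCAAT match on the other strand at 150. Sirt2 has CCAAT matches at 216 and 165 bases and a GC box on the other strand at 187. Hdac6 has GC boxes at 206, 173, 79 and 11 bases and CCAAT matches at 148 and, on the other strand, 31. The position of each is its base farthest from the start.

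RefSeq held 94 promoters for 69 of the members. In 300-base windows, 250 before and 50 after the start, the GC box was in 63.8% of the member promoters and in 35.7% of all 32851 promoters. CCAAT was in 38.3% and 37.4%. The cyclic AMP response element (TGACGTCA) was in 2.13% and 1.79%, the MYB element (AACNGTT) in 1.06% and 4.45%, the E2F element (TTTCCCGC) in 4.26% and 1.07%, and the NRF1 element in 2.13% and 0.971%. The median member promoter held 24 CpG dinucleotides and 62.7% G and C, against 7 and 52.7% among all promoters. These are matches of letters, not measured binding, and GC-rich motifs are met more often in GC-rich windows.

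Most members changed over the 10 days, and most of those were highest early. The moderated F test of limma, with day means at least 2-fold apart, called 63 of the 85 tested members, beside 77.6% of all 16429 tested genes. The median log2 range of day means was 1.66 among members and 1.80 among all genes. A range over 16-fold was found in 3 members (3.53%, against 8.12% of all genes): Brdt, Kdm4d and Nsd3. Of the 63 called members, 44 (69.8%) had their highest mean on days 0 to 10, 10 on days 14 to 20 and 9 (14.3%) on days 30 and 35. Of all called genes, 44.4% were highest on days 0 to 10 and 35.1% on days 30 and 35. Day 10 alone held the highest mean of 22 members, among them Ehmt2, Hdac6, Suv39h2, Prdm9, Kdm6b, Kmt2a and Kmt2c. The share of all called genes highest on day 10 was not computed, so this count is a description only. Fitted to days 0 to 14 alone, the test called 14 members (24.4% of all genes), and fitted to days 18 to 35 alone, 28 (28.4% of all genes).

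**Figure D1:**
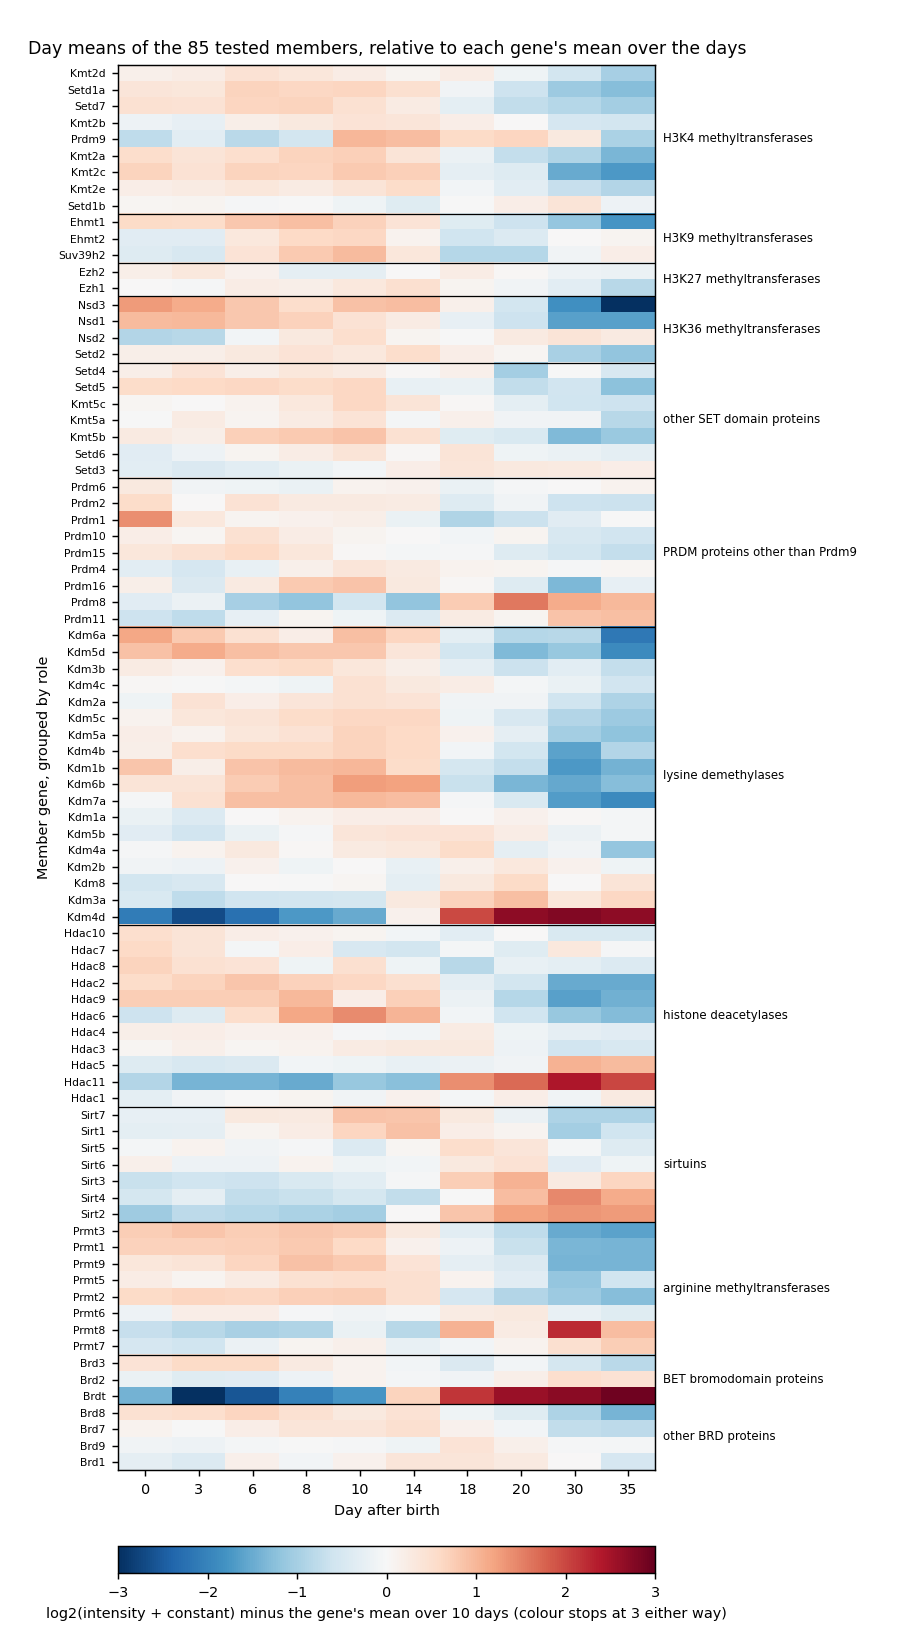
Day means of the 85 tested members as log2(intensity + 7.83), each minus its own mean over the 10 days, with members in rows grouped by role and days after birth in columns. Red is above and blue below the mean of the gene, and the colour stops at a difference of 3 either way. Most rows are red on the left and blue on the right, and Brdt, Kdm4d, Hdac11 and Sirt2 run the other way.

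Counts of called members are given beside the shares of all genes called the same way. A member was called at an adjusted p under 0.05 (limma, Benjamini-Hochberg over all 16429 genes) and a difference of at least 2-fold. On day 8 against day 0, 3 members were higher (3.29% of all genes) and 1 lower (2.77%). On day 14 against day 8, 3 were higher (5.48%) and 0 lower (2.5%), with 17 members lower at an unadjusted p under 0.05. On day 20 against day 14, 7 were higher (18.2%) and 20 lower (11.2%), that is 8.24% and 23.5% of the members. On day 35 against day 20, 2 were higher (8.5%) and 9 lower (7.27%). On day 35 against day 0, 13 were higher (27.3%) and 33 lower (27.6%), that is 15.3% and 38.8% of the members. In either direction, 6.06%, 7.97%, 29.4%, 15.8% and 54.9% of all genes were called in these comparisons. No call had overlapping arrays between its 2 days, but with 2 arrays per day the thresholds make this likely. It adds no support to the calls.

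The median member stood at a log2 difference of -0.37 on day 20 against day 14, where the median of all genes was 0.01, and at -0.67 on day 35 against day 0, where that of all genes was -0.03. These comparisons share arrays and span the step in the lowest intensities, except day 8 against day 0, day 14 against day 8 and day 35 against day 20. The count depends on the probe set taken: with the mean of all probe sets of a gene, dim ones below the filter included, 7 members in place of 20 were lower on day 20 than on day 14, 20 in place of 33 on day 35 than on day 0, and 4 in place of 9 on day 35 than on day 20. With arrays set to a common median, 5 members were higher and 29 lower on day 20 than on day 14, the median of all genes being -0.18.

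**Figure D2:**
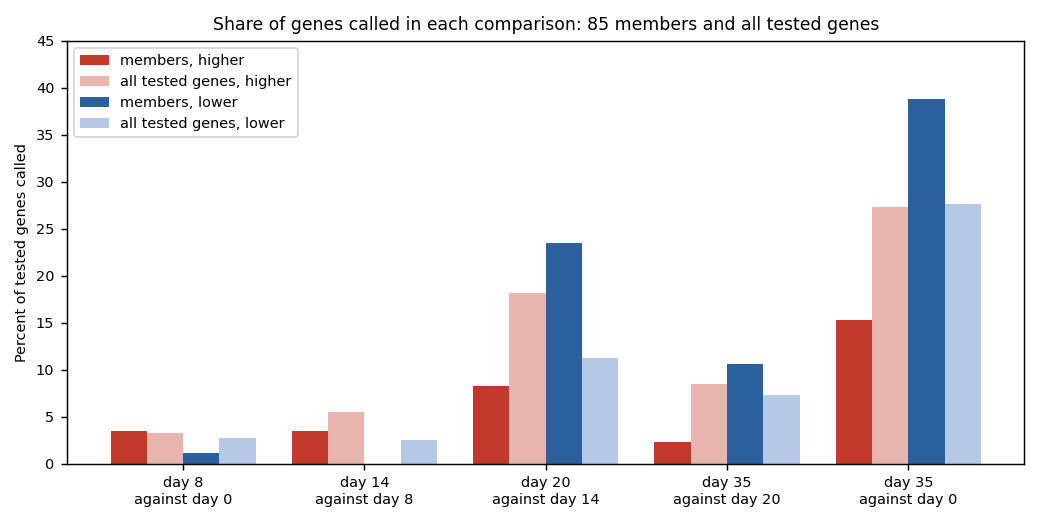
Percent of genes called higher (reds) or lower (blues) in each of the 5 comparisons, for the 85 members (dark) and all 16429 tested genes (light). On day 20 against day 14 the members stand at 8.24% higher and 23.5% lower, and all genes at 18.2% and 11.2%.

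The cells of the testis changed over the same days. Summed over 8 of 8 spermatocyte markers, intensity was 526 to 527 on the arrays of day 0, 9325 to 9334 on day 14 and 11140 to 12086 on day 20. Summed over 5 of 5 round spermatid markers it was 238 to 267 on day 14, 1405 to 1460 on day 20 and 7343 to 7356 on day 35. For the 7 Sertoli cell markers it was 9945 to 10136 on day 14, 6039 to 6237 on day 20 and 4889 to 5203 on day 35. Clu, the bulk of that sum, averaged 7108, 4540 and 3964 on these days, and neither step was called. In RNA of a whole organ, fewer cells of a type and less RNA per cell cannot be told apart, and the part of cell numbers in the results on members was not tested.

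Among the BET proteins, which bind acetylated histones, Brdt had the widest range of all members, a log2 range of day means of 6.19. Its arrays read 109 and 86.5 on day 0, 19.8 and 22.7 on day 3, 57.3 and 64.7 on day 8, 484 and 389 on day 14, 1659 and 1683 on day 20, and 2111 and 2108 on day 35. The day 3 arrays were the lowest of the course, and all arrays from day 14 on lay above all earlier ones. Brdt rose by 2.69 ± 0.17 (log2, SE; adjusted p = 3.42e-10) from day 8 to day 14 and by 1.92 ± 0.17 (adjusted p = 1.33e-08) to day 20. The size differed between its probe sets: on day 35 against day 0 its others gave 1.88 and 0.42, beside 4.33 for the brightest and 2.21 for their mean. On day 20 against day 14 they gave 0.18 and -0.04, and the mean over probe sets, 0.69, was under 2-fold.

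Brd2 and Brd3, the BET proteins of most tissues, stayed within a narrower band. Brd2 averaged 888 ± 34.4 (SD) on day 0 and 1377 ± 89.8 on day 35, a log2 difference of 0.63 ± 0.08 that was under 2-fold, with another probe set called higher at 1.05. Brd3 fell from 385 ± 20.8 to 161 ± 34.6, by 1.23 ± 0.15 on the log2 scale, but by 0.28 with the mean of its probe sets and by 0.98 after quantile normalization. Of the other 4 BRD proteins, Brd8, a subunit of a histone acetyltransferase complex, fell from 391 and 454 on day 0 to 106 and 116 on day 35, a log2 difference of -1.85 ± 0.14. The mean of its probe sets gave -1.09, still called. Brd7, a subunit of a chromatin remodeller, averaged 504 ± 34.7 on day 14 and 206 ± 19.8 on day 35. Its log2 difference of -0.89 on day 35 against day 0 was under 2-fold, and was called at -1.02 with a common median. Its dimmer probe set was called higher, at 1.20. Brd1 and Brd9 passed in none of the 5 comparisons.

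**Figure D3:**
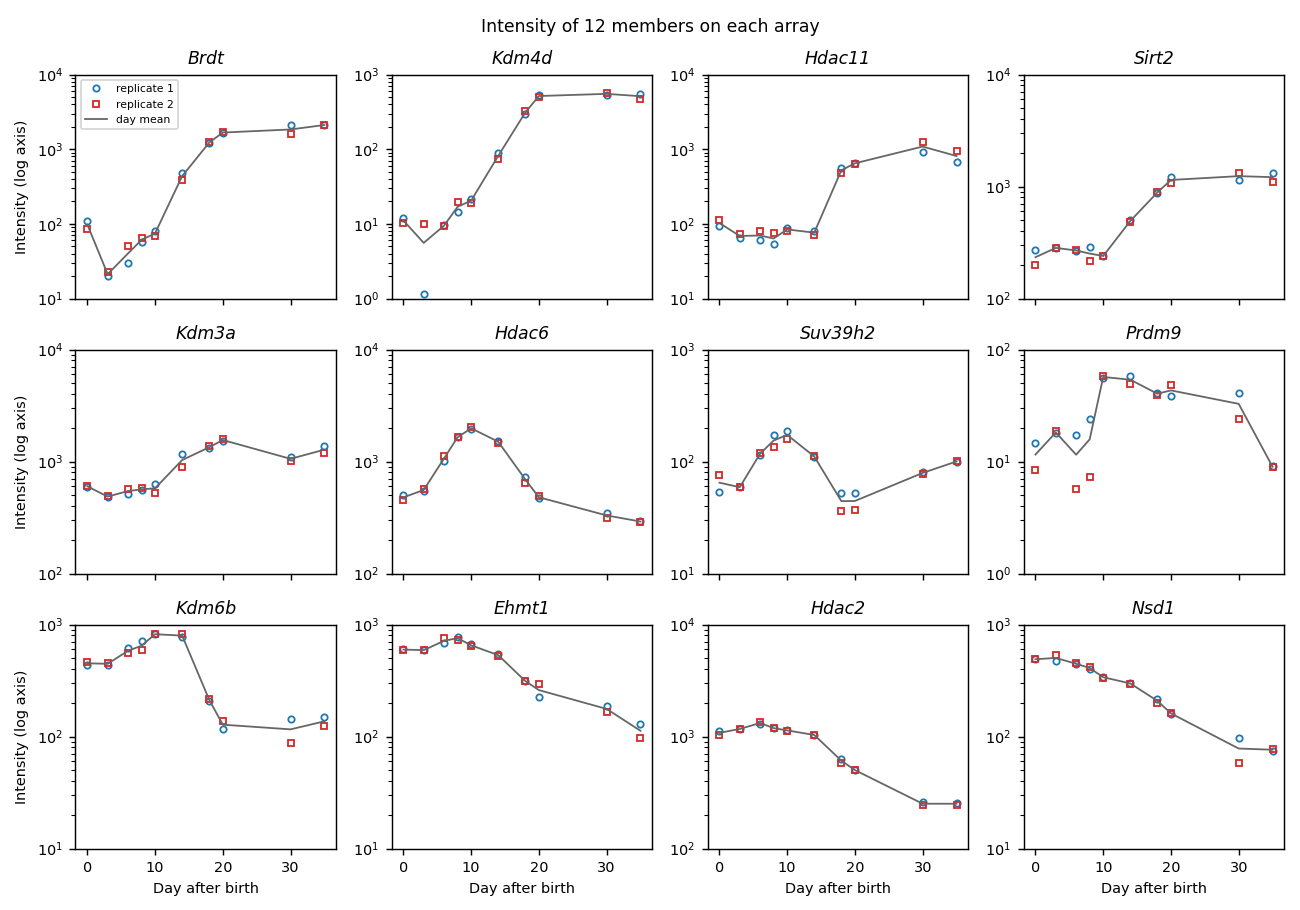
Intensity of 12 members on each array (log axes) against day after birth. Circles are replicate 1, squares replicate 2 and lines join day means. Brdt, Kdm4d, Hdac11 and Sirt2 climb between days 10 and 20, Hdac6 peaks on day 10, Kdm6b drops between days 14 and 18, and Ehmt1, Hdac2 and Nsd1 decline to day 35.

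The members grouped as lysine 4 methyltransferases of histone H3, with Kmt2e counted among them, were mostly called lower in the older testis. The group was set by gene symbol, and enzyme activity was not measured. Of 9 tested, 6 fell between day 0 and day 35 and 0 rose, with a median log2 difference of -1.16. Between days 14 and 20, 3 fell and 0 rose. Of all genes, 27.6% fell and 27.3% rose in the former, and 11.2% and 18.2% in the latter. Kmt2c, the catalytic subunit of an enhancer-marking complex, had the widest range of the 9. It read 406 and 384 on day 0, 445 and 378 on day 14, 165 and 210 on day 20, and 71.9 and 66.3 on day 35. The arrays of day 35 lay below all those of days 0 to 20. Kmt2c fell by 2.39 ± 0.14 on the log2 scale from day 0 to day 35 (adjusted p = 5.69e-12), by 1.11 ± 0.14 from day 14 to day 20 and by 1.33 ± 0.14 from day 20 to day 35. With the mean of its probe sets the latter steps were 0.88 and 0.94 in size and not called, and without day 20 replicate 1 the earlier of them was 0.94 in size.

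Kmt2a, which keeps Hox genes active in development, fell from 253 ± 7.54 (SD) on day 0 to 64.2 ± 21.1 on day 35, and Setd1a from 267 ± 37.3 to 84.2 ± 41.4. Setd7, Kmt2d and Kmt2e were called lower over that interval, by 1.47, 1.16 and 1.08 in size, but not under every alternative. With the mean of its probe sets Setd7 gave -0.46 and Kmt2d -0.59. After quantile normalization Kmt2d gave -0.88 and Kmt2e -0.96, and Kmt2e gave -0.99 without day 0 replicate 2 and -0.98 without day 35 replicate 2. Kmt2b, required in developing germ cells, averaged 336 ± 29.3 on day 0, 502 ± 35.4 on day 10 and 252 ± 10.2 on day 35, and passed in no comparison. Setd1b averaged 164 ± 8.36 and 140 ± 8.07 on days 0 and 35, a log2 difference of -0.22 ± 0.15.

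Prdm9, the methyltransferase that marks recombination sites, was highest on days 10 to 20. It read 24.2 and 7.33 on day 8, 55.8 and 58.0 on day 10, 58.4 and 49.2 on day 14, 38.2 and 48.1 on day 20, 41.3 and 24.2 on day 30, and 9.09 and 8.89 on day 35. The arrays of days 10 to 20 lay above all those of days 0 to 8 and of day 35. Prdm9 rose by 1.48 ± 0.38 (log2, SE; adjusted p = 0.00615) from day 8 to day 14 and fell by 1.59 ± 0.38 (adjusted p = 0.00178) from day 20 to day 35. The probe set is dim, near the pooled median of 34.6: with a floor there the differences were 0.63 and -0.31, and the rise was 0.94 without day 8 replicate 2 and 1.37 without day 14 replicate 1. None of these was called.

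Of 7 tested partners and hotspot factors, 3 rose and 0 fell between days 8 and 14, and 1 rose and 4 fell between days 14 and 20. Of all genes, 5.48% rose and 2.5% fell in the former, and 18.2% and 11.2% in the latter. Meiob, a protein that binds single-stranded DNA in meiosis, averaged 11.7 ± 1.47 (SD) on day 8, 623 ± 25.3 on day 14 and 287 ± 35.5 on day 20. Spo11, which makes the DNA breaks, averaged 24.0 ± 4.03, 320 ± 17.9 and 968 ± 8.96 on these days. Dmc1, the meiotic recombinase, averaged 109 ± 2.55, 341 ± 39.2 and 118 ± 1.69, and Hells, a remodeller that works with Prdm9, 1568 ± 53.2, 1536 ± 90.1 and 664 ± 16.9. Spo11 thus stood highest on day 20 of these 3 days, when Meiob, Dmc1 and Hells were below day 14.

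The 3 tested lysine 9 methyltransferases differed from each other. Ehmt1 and Ehmt2 form the enzyme that places most of the lower methylation states of this residue. Ehmt1 read 601 and 594 on day 0, 781 and 732 on day 8, 546 and 520 on day 14, 226 and 294 on day 20, and 129 and 96.4 on day 35. It fell by 2.34 ± 0.12 on the log2 scale between days 0 and 35 (adjusted p = 1.23e-12). The falls by 1.03 from day 14 to day 20 and by 1.15 from day 20 to day 35 were close to 2-fold and were lost without day 20 replicate 1 (0.84 in size) and without day 35 replicate 2 (0.96 in size). The former was also lost without day 14 replicate 1 (0.99) and the latter without day 20 replicate 2 (0.97). Ehmt2 went another way: 688 ± 10.2 (SD) on day 0, 1360 ± 117 on day 10, 656 ± 5.78 on day 20 and 925 ± 31.5 on day 35. Its differences stayed under 2-fold in the 5 comparisons, the largest being 0.95 ± 0.09 on day 8 against day 0, which was called at 1.05 with a common median. Its dimmer probe set was called lower on day 20 than on day 14 (-1.37).

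Suv39h2, which places trimethyl groups on lysine 9 and is most abundant in testis, rose, fell and rose again. It read 53.3 and 76.2 on day 0, 173 and 135 on day 8, 187 and 159 on day 10, 110 and 112 on day 14, 52.3 and 36.6 on day 20, and 99.7 and 101 on day 35. The day 20 arrays lay below those of days 8 to 14 and of days 30 and 35. The log2 differences were 1.16 ± 0.22 on day 8 against day 0, -1.20 ± 0.22 on day 20 against day 14 and 1.06 ± 0.22 on day 35 against day 20. With the mean of its probe sets the later differences were -0.63 and 0.28. Without day 20 replicate 2 they were -0.98 and 0.85, and the rise to day 8 was 0.93 without day 0 replicate 1 and 0.99 without day 8 replicate 1.

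Of the lysine 27 methyltransferases of the Polycomb complex, Ezh2 moved less than Ezh1. Ezh2, the form of dividing cells, averaged from 436 ± 6.37 on day 8 to 663 ± 14.3 on day 3, a log2 range of 0.59 that was under 2-fold. Ezh1 averaged 219 ± 10.996 on day 0, 308 ± 15.6 on day 14 and 120 ± 22.6 on day 35, and passed over the whole course (log2 range 1.32, adjusted p = 6.96e-07) but in 0 of the 5 comparisons. Without day 35 replicate 2, its log2 difference on day 35 against day 0 was -1.02.

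Of the 4 lysine 36 methyltransferases, 3 were called lower and 1 higher on day 35 than on day 0. Of all genes, 27.6% were lower and 27.3% higher there. Nsd1 read 490 and 490 on day 0, 303 and 292 on day 14, 160 and 162 on day 20, and 74.6 and 77.9 on day 35. Its arrays of each of these days lay below all those of the day before in this list. It fell by 2.57 ± 0.15 on the log2 scale (adjusted p = 4.15e-12) between days 0 and 35, and by 1.56 with the mean of its probe sets. Setd2, which places the trimethyl mark behind RNA polymerase, averaged between 395 and 507 on days 0 to 18 and fell from 365 ± 30.2 (SD) on day 20 to 150 ± 22.9 on day 35, by 1.25 ± 0.12 on the log2 scale (adjusted p = 6.31e-08), under every alternative. No other probe set of Setd2 was tested.

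Nsd2 and Nsd3 gave different answers from different probe sets. The brightest of Nsd2 rose from 131 and 144 on day 0 to 316 and 324 on day 8, by 1.17 ± 0.12 (log2, SE; adjusted p = 4.81e-07), and stayed at 311 ± 7.34 (SD) on day 35. Its other probe sets gave -0.99 to 0.07 on day 8 against day 0, and the mean over them reversed the sign, to -0.14. On day 35 against day 0 the brightest gave 1.13 and the mean 0.02. The brightest probe set of Nsd3 fell from 424 and 408 on day 0 to 9.81 and 10.2 on day 35, by 4.57 ± 0.32 on the log2 scale. It gave -1.48 ± 0.32 on day 20 against day 14 and -2.75 ± 0.32 on day 35 against day 20, where the mean of all its probe sets gave -0.45 and -0.45. On day 35 against day 0 its other 5 ran from -1.26 to 2.02, with 2 of them called lower and 1 higher, and the mean of all 6 gave -0.91.

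Of the 7 other SET domain proteins, 2 fell between days 0 and 35 and 0 rose, where 27.6% of all genes fell and 27.3% rose. Kmt5b, which places the di- and trimethyl marks on lysine 20 of histone H4, had the widest range of the 7. It averaged 166 ± 6.32 on day 0, 253 ± 13.8 on day 10 and 58.6 ± 11.3 on day 35, a log2 difference of -1.40 ± 0.25 between days 0 and 35 that became -0.64 with the mean of its probe sets. Setd5 averaged 229 ± 15.6 and 62.5 ± 21.3 on days 0 and 35, a difference of -1.78. Its other probe sets gave -1.27, called lower, and 0.66, not called, and the mean of its probe sets, -0.79, was not called. Setd4 was called lower on day 20 than on day 14 (49.2 ± 2.38 and 19.5 ± 1.74), with a difference of -1.06. It was not called with a higher added constant (-0.78), a floor at the pooled median (-0.51) or the mean of its probe sets (-0.37), or without day 14 replicate 1 (-1.02), day 14 replicate 2 (-1.10) or day 20 replicate 1 (-0.99). Setd3, the actin histidine methyltransferase, averaged 393 ± 16.8 and 568 ± 13.1 on days 0 and 35, under 2-fold. Its other, dimmer probe set was called lower in the same comparison (-1.95) and in both later steps.

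PRDM proteins other than Prdm9 were mostly dim. Prdm1, needed to set aside germ cells in the embryo, read 53.7 and 56.5 on day 0, 19.3 and 25.2 on day 3, 16.6 and 20.9 on day 8, and 9.23 and 25.6 on day 35. Both day 0 arrays lay above all later ones. The log2 difference on day 8 against day 0, -1.25 ± 0.37 (adjusted p = 0.0211), was lost without any 1 of the 4 arrays compared, with a floor at the pooled median (-0.67) and under quantile normalization (-1.04). Prdm8 read 6.08 and 1.48 on day 14 and 86.2 and 55.0 on day 20, a log2 difference of 2.76 ± 0.42 (adjusted p = 1.69e-05). As its early arrays lie below the pooled median and this comparison spans the step in low intensities, a floor there left 0.99. The brighter probe set of Prdm11 rose from 35.9 ± 15.1 (SD) to 118 ± 32.001 between days 0 and 35, by 1.54 ± 0.35, while its other one fell from 127 to 8.45, by 3.08, and their mean gave -0.77. Prdm2 and Prdm15 were called lower on day 35 than on day 0, by 1.20 and 1.07 in size. Prdm2 passed neither with the mean of its probe sets (-0.45) nor after quantile normalization (-0.99), and Prdm15 did not with a higher added constant (-0.88).

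The lysine demethylases held both the member with the second widest range and many that fell. Of 18 tested, 1 rose and 7 fell between days 14 and 20, and 2 rose and 9 fell between days 0 and 35. Of all genes, 18.2% rose and 11.2% fell in the former, and 27.3% and 27.6% in the latter. Kdm4d, which removes methyl groups from lysine 9 of histone H3 and is best known from testis, read 11.8 and 10.4 on day 0, 14.5 and 19.4 on day 8, 87.9 and 74.8 on day 14, 298 and 323 on day 18, 537 and 493 on day 20, and 548 and 477 on day 35. The arrays of day 14 lay above all earlier ones, and those of days 18 to 35 above day 14. Kdm4d has 1 probe set. It rose by 1.85 ± 0.25 (log2, SE; adjusted p = 1.21e-05) from day 8 to day 14 and by 2.56 ± 0.25 (adjusted p = 5.28e-08) from day 14 to day 20, and by 4.78 ± 0.25 between days 0 and 35. With a floor at the pooled median the rise to day 14 was 1.23, still called.

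Kdm3a, another lysine 9 demethylase, with a known part in the genes that condense spermatid chromatin, averaged 565 ± 14.1 (SD) on day 8, 1031 ± 204 on day 14, 1556 ± 38.0 on day 20 and 1277 ± 125 on day 35. Its log2 difference between days 0 and 35 was 1.08 ± 0.11 (adjusted p = 3.72e-08). It was under 2-fold with a common median (0.94), after quantile normalization (0.89) and without day 35 replicate 1 (0.98). The lysine 9 demethylases Kdm4a and Kdm4b ended lower. Kdm4a averaged 103 ± 7.36 on day 0 and 43.5 ± 14.9 on day 35, and Kdm4b 64.8 ± 2.97 and 27.2 ± 4.34, with calls that depended on 1 array: Kdm4a gave -0.83 without day 35 replicate 2 and -0.19 with the mean of its probe sets, and Kdm4b -0.93 without day 35 replicate 1. Kdm4c passed over the whole course (log2 range 1.02) and in none of the 5 comparisons.

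Kdm6b and Kdm6a remove methyl groups from lysine 27. Kdm6b read 436 and 465 on day 0, 777 and 815 on day 14, 208 and 217 on day 18, 118 and 138 on day 20, and 149 and 124 on day 35. All arrays from day 18 on lay below all earlier ones. It fell by 2.57 ± 0.16 on the log2 scale (adjusted p = 8.36e-11) between days 14 and 20, the largest fall of that comparison among members. A further probe set of Kdm6b fell by 1.61, the third gave -0.26, and the mean of all 3 was -1.48. Kdm6a read 233 and 209 on day 0, 156 and 149 on day 14, 58.4 and 40.9 on day 20, and 27.4 and 7.32 on day 35. It fell by 3.31 ± 0.31 on the log2 scale between days 0 and 35 (adjusted p = 7.1e-09), with its other probe sets falling by 1.97 and 1.54 and the mean by 1.67. Its fall from day 14 to day 20 (adjusted p = 0.000362) was not called with the mean of its probe sets, which gave -0.79. That from day 20 to day 35, -1.30, became -0.69 without day 35 replicate 2, -0.50 with a floor at the pooled median and -0.51 as the mean of probe sets.

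Kdm7a, which acts on lysines 9 and 27, held near its peak from day 6 to day 14 and then fell. It read 452 and 521 on day 0, 985 and 986 on day 10, 933 and 970 on day 14, 380 and 343 on day 20, and 120 and 133 on day 35. The arrays of day 35 were the lowest of the course. It fell by 1.38 ± 0.09 on the log2 scale (adjusted p = 3.2e-10) between days 14 and 20 and by 1.46 ± 0.09 (adjusted p = 2.44e-10) between days 20 and 35, and all of its 3 probe sets had negative differences in both. The mean over all its probe sets, those too dim to be tested included, gave -0.68 and -0.52.

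Among the lysine 4 demethylases, Kdm1b fell and Kdm1a did not pass. Kdm1b, an oxidase known for its part in egg imprints, read 258 and 214 on day 0, 204 and 178 on day 14, 64.1 and 86.9 on day 20, and 38.8 and 47.3 on day 35. The day 20 arrays lay below those of day 14 and above those of day 35. Kdm1b fell by 2.26 ± 0.19 on the log2 scale (adjusted p = 1.13e-09) between days 0 and 35 under every alternative. No other probe set of Kdm1b was tested. Kdm1a averaged 881 ± 13.02 on day 0 and 975 ± 59.2 on day 35, and its day means had a log2 range of 0.61. Kdm5b averaged 681 ± 0.462, 1145 ± 65.3 and 831 ± 17.6 on days 0, 14 and 35, under 2-fold, and another probe set was called lower on day 20 than on day 14 (-1.55). Kdm5a fell from 375 ± 33.4 on day 0 to 135 ± 5.80 on day 35, by 1.42 ± 0.12. Of its 6 probe sets, 3 were called lower and 1 higher, and their mean gave -0.52.

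**Figure D4:**
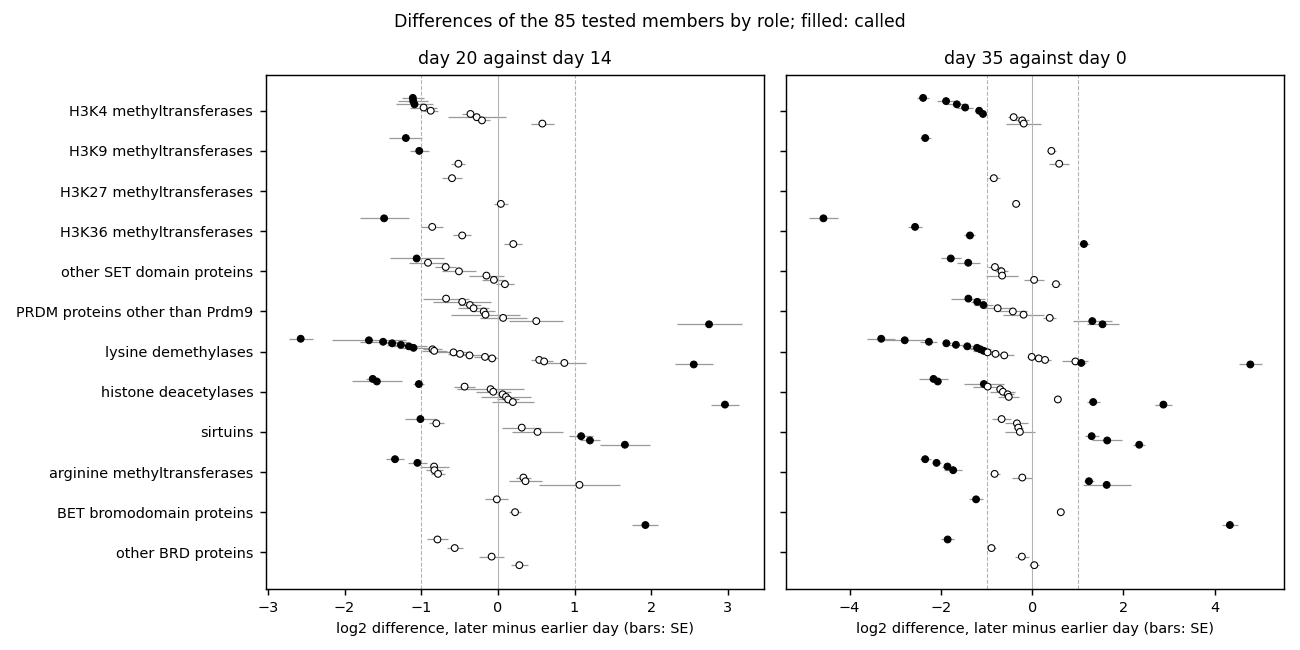
Log2 differences (later minus earlier day, points with SE bars) of the 85 tested members by role, for day 20 against day 14 and day 35 against day 0. Filled points were called. Histone H3 lysine 4 methyltransferases, lysine demethylases and arginine methyltransferases lie mostly to the left of 0, and Brdt, Kdm4d and Hdac11 lie farthest to the right on day 35.

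Of 11 tested zinc-dependent deacetylases, 1 rose and 3 fell between days 14 and 20, where 18.2% of all genes were higher and 11.2% lower, and 2 rose and 3 fell between days 0 and 35, where 27.3% of all genes were higher and 27.6% lower. Hdac11, the only class IV member, read 92.6 and 113 on day 0, 80.8 and 71.7 on day 14, 565 and 479 on day 18, 653 and 641 on day 20, 925 and 1245 on day 30, and 675 and 946 on day 35. The arrays of days 18 to 35 lay above all earlier ones. It rose by 2.96 ± 0.19 (log2, SE; adjusted p = 1.34e-10) between days 14 and 20. Its other probe set gave -0.52 there and 2.19 on day 35 against day 20, so that both were higher on day 35 than on day 0, by 2.87 and 1.38, and differed in when. The mean of its probe sets rose by 1.22 between days 14 and 20.

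Hdac6, a cytoplasmic deacetylase of tubulin and other proteins, had the clearest early peak. It read 502 and 455 on day 0, 543 and 571 on day 3, 1019 and 1111 on day 6, 1641 and 1650 on day 8, 1945 and 2018 on day 10, 1536 and 1472 on day 14, 735 and 649 on day 18, 469 and 491 on day 20, and 297 and 286 on day 35. No day overlapped a neighbouring one from day 3 to day 20. Hdac6 rose by 1.77 ± 0.08 (log2, SE; adjusted p = 1.72e-11) between days 0 and 8 and fell by 1.63 ± 0.08 (adjusted p = 5.91e-12) between days 14 and 20, each under every alternative. It has 1 probe set. Over the same days the sum of 7 of 7 spermatogonia markers was 660 to 687 on day 0, 3671 to 3702 on day 10, 2112 to 2305 on day 14 and 2543 to 2558 on day 20. From day 14 to day 20 that sum holds opposite changes. Dmrtb1 rose, with means of 176 ± 19.8 and 1650 ± 46.4, while 4 of the 7 fell: Kit (222 and 58.4), Stra8 (629 and 296), Sohlh1 (109 and 39.9) and Uchl1 (883 and 389). Zbtb16 and Gfra1 were not called. Whether cell numbers had a part was not tested.

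The class I deacetylases, the nuclear enzymes of the large repressor complexes, differed. Hdac2 read 1127 and 1030 on day 0, 1031 and 1035 on day 14, 499 and 504 on day 20, and 255 and 247 on day 35. It fell by 2.07 ± 0.07 on the log2 scale (adjusted p = 2e-15) between days 0 and 35, and all of its 3 probe sets were called lower there. Hdac1 averaged 697 ± 34.2 (SD) on day 0 and 1034 ± 47.6 on day 35, a log2 difference of 0.56 ± 0.08 that was under 2-fold. Hdac3 averaged 316 ± 18.4 and 216 ± 23.1, also under 2-fold. Hdac8 was called lower on day 35 than on day 0, but its day 35 arrays read 31.8 and 3.55, and the difference of -1.06 became -0.16 without replicate 2 of that day. It was also not called without day 0 replicate 1 (-1.09) or day 0 replicate 2 (-1.03). For these enzymes the log2 difference between days 0 and 35 thus ran from -2.07 in Hdac2 to 0.56 in Hdac1.

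Of the class IIa deacetylases, which shuttle between nucleus and cytoplasm, Hdac5 rose late. It read 225 and 213 on day 20, 443 and 550 on day 30, and 435 and 494 on day 35, against 180 and 178 on day 0. The arrays of days 30 and 35 lay above all others. Its log2 difference on day 35 against day 20 was 1.05 ± 0.15 (adjusted p = 6.6e-06), or 0.96 without day 35 replicate 2. Hdac9 fell from 49.0 and 46.0 on day 0 to 5.77 and 3.41 on day 35, by 2.16 ± 0.33 on the log2 scale, but the later values lie below the pooled median and a floor there left -0.46. The mean of its probe sets gave -0.79. Hdac4 passed in no comparison, though another of its probe sets was called lower on day 35 than on day 0 (-1.08), and Hdac7 passed over the whole course (log2 range 1.15) with its highest mean, 173 ± 6.47, on day 0. The other probe set of Hdac7 was called lower on day 20 than on day 14 (-1.15) and on day 35 than on day 0 (-1.53). The mean of the Hdac7 probe sets was called lower in the latter (-1.08).

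Among the sirtuins, 3 of 7 rose and 1 fell between days 14 and 20, and 3 rose and 0 fell between days 0 and 35. Of all genes, 18.2% rose and 11.2% fell in the former, and 27.3% and 27.6% in the latter. Sirt2, a mostly cytoplasmic deacetylase of tubulin and histone H4, read 269 and 199 on day 0, 242 and 237 on day 10, 503 and 482 on day 14, 1214 and 1075 on day 20, and 1322 and 1103 on day 35. All arrays from day 14 on lay above all earlier ones. It rose by 1.20 ± 0.13 (log2, SE; adjusted p = 2.65e-07) from day 14 to day 20 and by 2.35 ± 0.13 (adjusted p = 3.38e-12) between days 0 and 35. With a common median the former was 0.99.

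The mitochondrial sirtuins Sirt3 and Sirt4 rose on the same interval. Sirt3, a deacetylase of the mitochondrial matrix, averaged 158 ± 9.26 (SD) on day 0, 249 ± 16.4 on day 14, 537 ± 29.6 on day 20 and 400 ± 0.946 on day 35. Its rise to day 20 was 1.09 ± 0.15, or 0.87 with a common median. Sirt4 read 36.4 and 18.1 on day 14, 92.3 and 106 on day 20, 145 and 144 on day 30, and 147 and 88.1 on day 35, and rose by 1.66 ± 0.32 (log2, SE; adjusted p = 0.000232) between days 14 and 20 under every alternative. No other probe set of Sirt4 was tested. Sirt5, also mitochondrial, averaged 50.8 ± 5.66 on day 0 and 39.0 ± 9.21 on day 35 and passed in no comparison.

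Sirt1 and Sirt7, both nuclear, were highest on days 14 and 10. Sirt1 averaged 280 ± 9.04 on day 0, 543 ± 20.5 on day 10, 641 ± 16.3 on day 14, 364 ± 11.6 on day 20 and 226 ± 31.9 on day 35. It passed over days 0 to 14 alone (log2 range 1.17, adjusted p = 2.06e-08) and over days 18 to 35 alone (1.22, adjusted p = 2.2e-05), while each of the 5 comparisons stayed under 2-fold. With a common median Sirt1 was called lower on day 20 than on day 14 (-1.02). Sirt7, the nucleolar form, averaged 147 ± 8.42, 322 ± 10.4, 318 ± 7.73, 155 ± 23.7 and 90.2 ± 19.4 on these days. Its fall from day 14 to day 20, -1.01 ± 0.20, became -0.86 without day 20 replicate 2 and -0.84 after quantile normalization. Sirt6 averaged 49.1 ± 3.99 on day 0 and 42.6 ± 24.9 on day 35 and passed in no comparison.

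The arginine methyltransferases fell in 4 of 8 cases and rose in 2 between days 0 and 35, with a median log2 difference of -1.28. Of all genes, 27.6% fell and 27.3% rose there. Prmt1, the main source of asymmetric dimethylarginine, read 1488 and 1261 on day 0, 1462 and 1442 on day 8, 884 and 950 on day 14, 521 and 540 on day 20, and 342 and 290 on day 35. The arrays of day 14 lay below all earlier ones and those of day 35 below day 20. Prmt1, with 1 probe set, fell by 2.09 ± 0.09 on the log2 scale (adjusted p = 4.94e-14) under every alternative, and each of the later steps was under 2-fold. Prmt2 read 363 and 351 on day 14, 134 and 138 on day 20, and 89.9 and 111 on day 35. It fell by 1.34 ± 0.12 on the log2 scale (adjusted p = 1.13e-08) between days 14 and 20 and by 1.86 ± 0.12 between days 0 and 35, each under every alternative.

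Prmt5, the main source of symmetric dimethylarginine, averaged 510 ± 3.997 (SD) on day 14, 285 ± 30.2 on day 20 and 236 ± 1.48 on day 35. It was called over the whole course (log2 range 1.65, adjusted p = 1.02e-10) and stayed under 2-fold in each of the 5 comparisons. With a common median Prmt5 was called lower on day 20 than on day 14 (-1.04). Prmt9 averaged 220 ± 54.6 and 61.1 ± 19.1 on days 0 and 35, a log2 difference of -1.73, or -0.89 with the mean of its probe sets. Prmt7 rose late, from 303 ± 11.2 on day 0 and 470 ± 37.6 on day 20 to 731 ± 85.4 on day 35, by 1.24 ± 0.10 between days 0 and 35, or by 0.87 with the mean of its probe sets. Prmt3, which acts on a ribosomal protein, fell by 2.34 ± 0.12 on its brightest probe set between days 0 and 35. The others gave -0.93 to 0.63, none called, and the mean, -0.44, was not called. On day 20 against day 14 that probe set gave -1.05 and another pair gave 1.17 and 1.03, each called, and the mean of its probe sets gave 0.10. Prmt8, a membrane-bound form known from brain, was below 15 on all arrays of days 0 to 14 and read 58.3 and 95.04 on day 30 and 8.93 and 58.5 on day 35. Its rise between days 0 and 35, 1.63 ± 0.52 (log2, SE; adjusted p = 0.00889), became 0.64 without day 35 replicate 2 and 1.33 without day 0 replicate 2, neither called, 2.62 without day 35 replicate 1 and 0.38 with a floor at the pooled median.

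Members on the sex chromosomes were among those that fell. Of 4 members on the X chromosome (Hdac6, Hdac8, Kdm5c and Kdm6a), 3 were lower on day 20 than on day 14. Of all 559 tested X-linked genes 173 were lower and 53 higher, and of all tested genes 11.2% were lower and 18.2% higher. This comparison spans the step in low intensities, and whether silencing of the X and Y in spermatocytes had a part was not tested. Kdm5c, a lysine 4 demethylase, read 180 and 150 on day 14, 71.1 and 73.8 on day 20, and 34.0 and 58.6 on day 35. Its log2 difference of -1.10 ± 0.20 on day 20 against day 14 became -0.11 with the mean of its probe sets and -0.97 without day 14 replicate 1. Kdm5d, its counterpart on the Y chromosome, read 75.9 and 85.5 on day 14 and 47.9 and 5.78 on day 20, and the fall by 1.68 became -0.67 without day 20 replicate 2. With the mean of its probe sets it was -0.45. Between days 0 and 35 Kdm5d averaged 120 ± 24.5 (SD) and 13.5 ± 15.5, a difference of -2.79 that became -0.75 with the mean of its probe sets and was not called. Its other probe set gave -0.74.

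Disagreement between probe sets touched many calls. Of the 91 calls over the 5 comparisons, 53 belonged to genes with another tested probe set. In 30 of these another probe set was called the same way and in 5 the opposite way. Probe sets of 5 members were called in both directions within a comparison: Nsd3, Prdm11, Prmt3, Kdm5a and Kdm2a. For Kdm2a, a lysine 36 demethylase, the brightest probe set averaged 285 ± 57.5 on day 0 and 158 ± 4.57 on day 35 and was not called (-0.80), while others gave -1.10 and 1.65. The annotation assigns these probe sets to the same symbol, and which transcript each one measures was not examined.

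**Figure D5:**
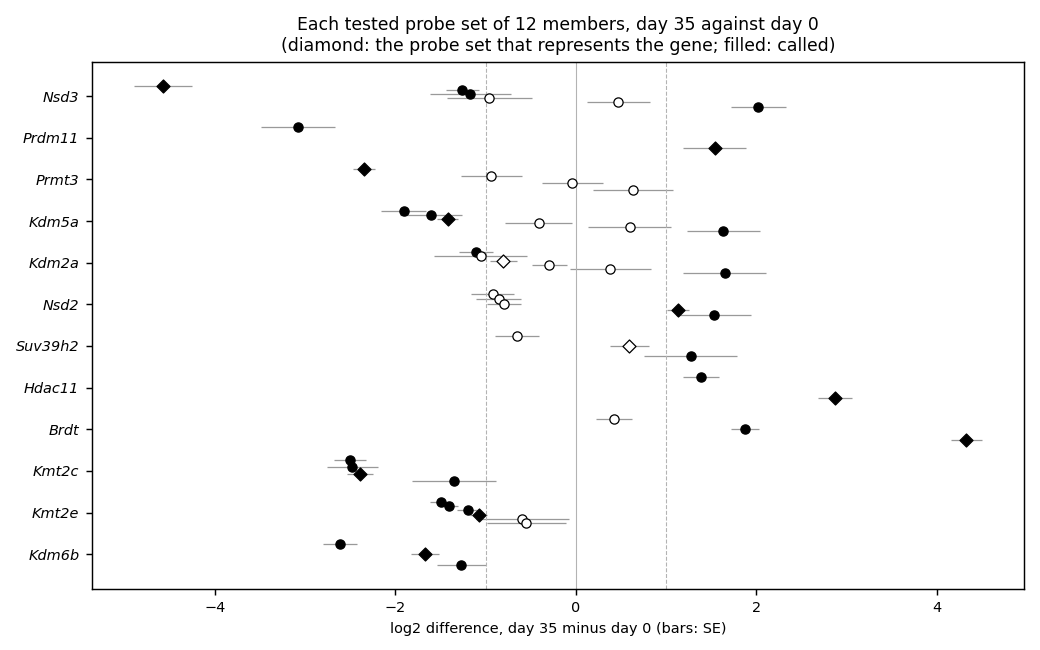
Log2 difference (day 35 minus day 0, with SE bars) of every tested probe set of 12 members. Diamonds mark the probe set that represents the gene and filled symbols those called. Nsd3 runs from -4.57 to 2.02, Prdm11 holds 1 on each side of 0, and the 3 of Kdm6b all lie left of -1.

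Genes that work with the members, in 9 lists of 128 tested genes, were counted the same way. On day 20 against day 14, 12 were higher and 18 lower, and on day 35 against day 0, 18 were higher and 54 lower, with medians of -0.37 and -0.63. Of all genes, 18.2% were higher and 11.2% lower in the former and 27.3% and 27.6% in the latter, and the counts of the short lists that follow are descriptions beside those shares. Among 22 other bromodomain proteins, 13 fell and 4 rose between days 0 and 35. Zmynd8, which binds acetylated and methylated histones together, averaged 247 ± 13.4 (SD) on day 0, 41.8 ± 2.18 on day 20 and 10.9 ± 0.403 on day 35. Taf1, the largest subunit of the general factor TFIID, averaged 305 ± 7.74, 91.9 ± 22.5 and 32.8 ± 0.088. Baz1a, a remodeller subunit, went up, from 86.7 ± 13.9 to 1154 ± 51.2 on day 20 and 754 ± 38.8 on day 35.

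Among 26 Polycomb partners, 6 rose and 10 fell between days 0 and 35. Phf1, an accessory subunit of the lysine 27 methyltransferase complex, averaged 71.3 ± 21.9 on day 0, 140 ± 7.33 on day 14, 551 ± 29.3 on day 20 and 465 ± 46.5 on day 35. Over the same days the catalytic subunit Ezh2 averaged 594 ± 25.3, 532 ± 41.2, 546 ± 18.0 and 464 ± 1.12. Among 13 acetyltransferases 1 rose and 6 fell, among 9 other demethylases 2 rose and 5 fell, and among 9 readers and partners of lysine 9 methylation 0 rose and 4 fell. Atrx, a remodeller of heterochromatin and 1 of the last group, averaged 1006 ± 25.4 on day 0, 442 ± 44.3 on day 14 and 113 ± 0.0919 on day 35. Of 10 KMT2 complex partners 0 rose and 3 fell, but their median log2 difference was 0.24 and 6 of the 10 lay above 0. Of 21 deacetylase complex partners 2 rose and 8 fell, and of 12 other methyltransferases 1 rose and 3 fell.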

How the data were processed

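Each of the 20 one-colour arrays measured total RNA of a whole testis sample. Trizol extraction and biotin labelling in a one-cycle 3′ protocol are recorded, per the labels' protocols. The deposited table holds linear intensities, 1 per probe set, which the authors had scaled so that the 2% trimmed mean is 125 on every array. The summarisation software was not given in the sources used here. No further normalization was applied. Of 45101 probe sets, 34945 carry 1 gene symbol in the platform annotation. All 87 members matched RefSeq genes of GRCm38.p6 by Entrez identifier.

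Values were taken as log2(intensity + 7.83), the constant being the pooled 20th percentile, and fitted by lmFit and eBayes with a trend (limma 3.58.1, R 4.3.3). Day was a factor of 10 levels over all 20 arrays, with 10 residual and 8.88 prior degrees of freedom. Probe sets of members were tested in a like fit over all single-symbol probe sets above the filter. Tests are two-sided, and a fitted log2 difference understates the change of dim genes. Alternatives changed the constant, a floor, the filter, the scaling, the probe set, the trend, the days fitted, the block and each array in turn. The method was tested on simulated data. Members named with values are a fixed set, up to 12 rises and 12 falls per comparison, the widest range in each role and genes whose probe sets disagree, and others were added after their values were seen. The members and lists were chosen with earlier results of these data known.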

Additional observations from a re-analysis of the deposited data

How the results depend on the processing

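Of the 91 member calls, 31 held under all 31 alternatives, 60 ended under at least 1, and 28 ended when 1 array was left out. For any call, most of the arrays left out belong to days that are not compared. The mean of probe sets can change little for a gene with a single probe set. The mean of all probe sets of a gene ended 40 calls, the higher added constant 16, quantile normalization 16, a floor at the pooled median 14, a common median 4, the compared days alone 3 and the lower constant 1. Calls ended by another filter, by no trend or by the block numbered 0. The 3 reversals came with the mean of probe sets: Nsd2 on day 8 against day 0 (-0.14), Prdm11 on day 35 against day 0 (-0.77) and Prmt3 on day 20 against day 14 (0.10). With that mean 7, 20 and 4 members were lower on day 20 against day 14, day 35 against day 0 and day 35 against day 20. With no minimum size, 14 members were higher and 5 lower on day 8 against day 0, 12 and 8 on day 14 against day 8, 14 and 41 on day 20 against day 14, 5 and 39 on day 35 against day 20, and 20 and 51 on day 35 against day 0. A common median gave 5 higher on day 8 against day 0. Quantile normalization gave 13 lower on day 20 against day 14, and 3 higher with 6 lower on day 35 against day 20. The higher constant gave 1 higher on day 35 against day 20, and both constants gave 0 lower on day 8 against day 0. The time course called 14 members over days 0 to 14 alone and 28 over days 18 to 35 alone. Leaving out 1 array at a time gave 62 to 68 over the time course, 2 to 4 higher and 0 to 1 lower on day 8 against day 0, 2 to 4 higher and 0 to 0 lower on day 14 against day 8, 7 to 8 higher and 16 to 20 lower on day 20 against day 14, 2 to 4 higher (4 without day 35 replicate 1) and 7 to 13 lower on day 35 against day 20, and 12 to 13 higher and 32 to 35 lower on day 35 against day 0. The lower call on day 8 was absent without any 1 of the 4 arrays compared. The cause of these shifts was not tested. The titles do not say that the replicate numbers pair the arrays. Over 45 pairs of days the deviations correlated from -0.02 to 0.06, 0 of them above 0.1. This shows no deviation shared over all genes by arrays of equal number, but cannot exclude a shared preparation. The time course called 63 members with the replicate number as a block. With 2 arrays per day, differences near 2-fold and probe sets near the pooled median are the least precise.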
